A study of Mus musculus with 77 samples.

Results

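The genes described here encode the urea cycle and its nearest partners in liver ammonia handling. They were taken by symbol, as a fixed list of 10 genes among the 25266 genes counted in mouse liver, and the rule used no measured value. All 10 passed the filter on low counts, which 10696 genes passed, and 9 are reported here. Each of the 9 was followed in total RNA, in ribosome-protected fragments (RPF, the mRNA pieces shielded by translating ribosomes) and in their ratio, the translation efficiency (TE), always from reads assigned to the coding sequence (CDS).

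Ammonia released from amino acids is toxic, and the liver disposes of it by linked routes. Hepatocytes near the portal vein convert it to urea in a cycle that begins in mitochondria and ends in the cytosol, and hepatocytes around the central vein capture what escapes as glutamine. Flux through the cycle follows protein intake and fasting, and the enzymes are among the abundant proteins of the hepatocyte.

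Ribosome profiling and total RNA sequencing were performed on single livers of adult male mice on a C57BL/6J background, aged 12 to 24 weeks, kept under 12 h light and 12 h dark with food always present. The Aco1 line carried the allele Aco1tm1.1Mwh and lacked IRP1 when homozygous, and the Ireb2 line carried Ireb2tm1.2Mwh and lacked IRP2. Both proteins bind iron-responsive elements in mRNAs, and the deletions affect the whole animal, so that a liver effect need not arise in hepatocytes. The 8 groups of 3 mice were Aco1+/+, Aco1-/-, Ireb2+/+ and Ireb2-/- livers taken at Zeitgeber time 5 (ZT5, 5 h after lights on) or ZT12 (lights off). The study asked how loss of either protein changes mRNA abundance and translation at these timepoints.

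CDS counts per liver ranged from 852293 to 3993492 for RNA and from 2448915 to 13439600 for RPF, and the 9 genes together took 0.941 to 1.48% of the RNA counts and 0.817 to 1.82% of the RPF counts. The targeted genes followed their labels, with Aco1 RPF at 347.1 to 591.3 CPM (counts scaled to one common library size) in Aco1+/+ and 74.8 to 123.2 CPM in Aco1-/- livers, and Ireb2 RPF at 62.3 to 81.4 CPM in Ireb2+/+ and 32.5 to 41.2 CPM in Ireb2-/- livers. Hepatocyte markers summed to 135700 to 196100 RNA CPM (7 genes counted), against 624 to 901 CPM for 7 endothelial, 401 to 698 CPM for 7 Kupffer cell and 495 to 745 CPM for 7 stellate cell markers. Of 5 lymphocyte markers 3 were counted, with 1 of these at 0 in every liver and a sum of at most 2.39 CPM, and 5 erythroid markers summed to 2.15 to 120.3 CPM. The sum of 5 cholangiocyte markers had a median of 37.8 CPM in Aco1+/+ and 42.8 CPM in Aco1-/- livers at ZT5, against 13.9 and 20.4 CPM at ZT12. In the Ireb2 line its median was 23.7 CPM in Ireb2+/+ and 33.2 CPM in Ireb2-/- livers at ZT5, against 16.2 and 26.9 CPM at ZT12. The timepoints did not overlap in Aco1+/+ and Ireb2-/- livers and overlapped in the other 2 genotypes, and the part of this sum in the time effects below was not tested. In the Ireb2 line at ZT12 the hepatocyte sum was 178700 to 196100 CPM in Ireb2-/- and 161100 to 171300 CPM in Ireb2+/+ livers, and the endothelial sum in Ireb2-/- livers was 795 to 901 CPM at ZT5 and 655 to 688 CPM at ZT12, the latter against 713 to 792 CPM in Ireb2+/+ livers. The erythroid sum was 8.76 to 24.5 CPM in Aco1-/- and 44.8 to 84.1 CPM in Aco1+/+ livers at ZT5, and 16.7 to 23.3 CPM in Ireb2-/- and 23.5 to 34.1 CPM in Ireb2+/+ livers at ZT12. None of these pairs of ranges overlapped, and their part in the results of either line was not tested. In bulk liver, fewer cells of a type and less RNA per cell cannot be told apart.

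Some libraries stood apart. The RPF libraries of 4 Aco1-line livers at ZT5 (Aco1+/+ replicates 1 and 2, Aco1-/- replicates 1 and 2) scored 13.4 to 19.2 on the second principal component of RPF levels, and the other 20 livers scored -18.1 to 7.7. Their RNA libraries had 48.3 to 56.6% of reads in the CDS, against 54.8 to 66.7% in the other livers. In 22 livers the deviations of RNA and RPF from their group means, compared across 4976 genes within a liver, correlated at 0.34 to 0.67, but at 0.17 and 0.08 in Aco1-/- livers 2 and 3 at ZT12. Genes are not independent replicates, and these correlations are descriptions. Whether the RNA and RPF libraries of these 2 livers come from the same animals cannot be told from the files, so their TE values hold only if the labels do.

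At the entrance to the cycle, Nags makes N-acetylglutamate, the activator that Cps1 requires, and Cps1 joins ammonia and bicarbonate into carbamoyl phosphate. Nags lies at chr11:102145513-102149528 and Cps1 at chr1:67122426-67231267 (all positions are GRCm38.p6, from RefSeq). Gls2, the liver glutaminase at chr10:128194635-128210004, releases ammonia from glutamine inside periportal mitochondria. Otc (chrX:10252230-10321024) turns carbamoyl phosphate and ornithine into citrulline, and Slc25a15 (chr8:22375550-22398621) exchanges ornithine for citrulline across the inner mitochondrial membrane. Slc25a13 (chr6:6041218-6217304) encodes citrin, which brings out the aspartate that supplies the second nitrogen. In the cytosol, Ass1 (chr2:31470270-31520670) condenses citrulline with aspartate, and Asl (chr5:130011258-130024381) splits argininosuccinate into arginine and fumarate. Glul (chr1:153899929-153909723) encodes glutamine synthetase, the pericentral ammonia scavenger.

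Among the mitochondrial genes, Cps1 was measured at 5700 to 9735 RNA CPM over the 24 livers (median 7516) and at 5796 to 15100 RPF CPM (median 11360). Its transcripts alone took a median of 0.903% of all RNA counts. Otc was the steadiest of the 9 genes in RPF, at 1010 to 1344 CPM with a coefficient of variation of 7.87% over the 24 livers, compared with 27.2% for Asl and 27.1% for Ass1. Nags was counted least, with 75 to 304 RNA reads and 137 to 853 RPF reads per liver, so that its ratios are the least precise. Levels in CPM depend on CDS length and are not compared between genes.

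The remaining genes varied over the 24 livers by a coefficient of variation in RPF of 15.1% for Slc25a13, 15.9% for Gls2, 16.1% for Glul, 16.6% for Nags and 23.97% for Slc25a15. Gls2 ranged from 299 to 554 RPF CPM, and its RNA from 317 to 709 CPM, the highest value of both belonging to replicate 3 of the Ireb2-/- livers at ZT12. Glul ranged from 330 to 715 RPF CPM. Nags ranged from 58.5 to 111.4 RPF CPM.

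**Figure D1:**
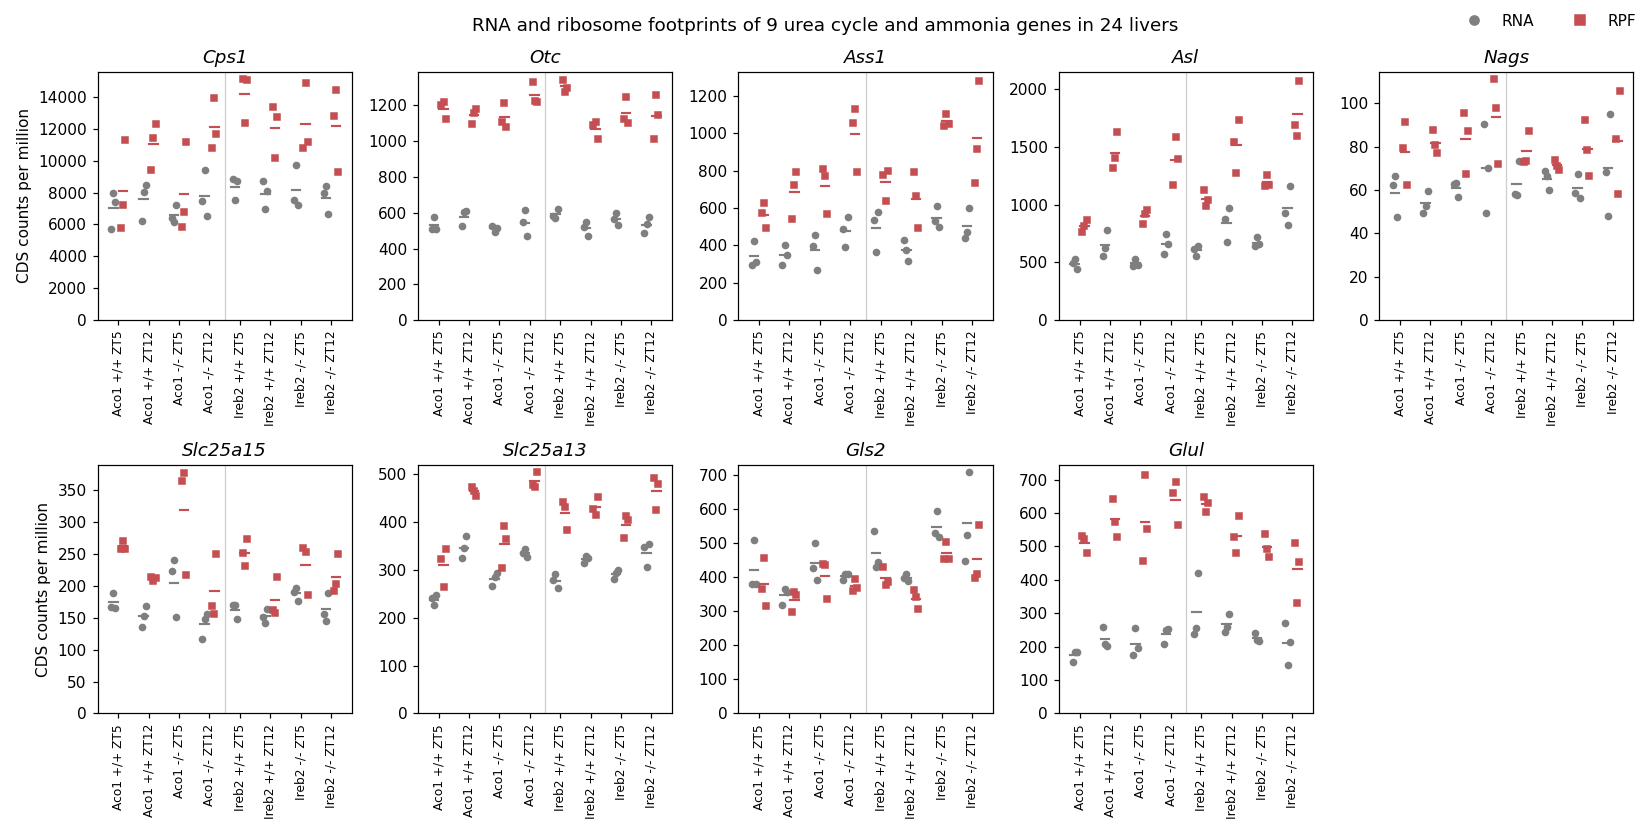
Levels of the 9 genes in CPM of CDS counts (y axes from 0) in the 8 groups (x axes). Grey circles are RNA and red squares RPF of single livers, and short lines are means of 3 livers. Asl RPF is higher at ZT12 than at ZT5 in each of the 4 genotypes, and Cps1 RPF in 4 Aco1-line ZT5 livers (5796 to 7242 CPM) lies below that of the other 20 livers.

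The ratio of RPF to RNA is free of gene length and can be compared between genes. Averaged over 24 livers, log2 TE was highest for Glul (1.27, the 95.4th percentile of the 10696 genes) and Otc (1.10, 92.7th percentile). The lead of Glul lay in the Aco1 line, with group means of 1.387 to 1.56 for Glul and 0.986 to 1.216 for Otc. In the Ireb2 line these ranges overlapped, at 0.995 to 1.14 for Glul and 1.035 to 1.144 for Otc. Asl (0.90) and Ass1 (0.87) followed and differed by less than the spread between livers (SD 0.16 and 0.24). Cps1 stood at 0.52, Slc25a15 at 0.46, Slc25a13 at 0.45 and Nags at 0.37, and these 4 overlapped widely. Gls2 was the only one of the 9 below the median of all genes (0.11), at -0.18, with every liver between -0.36 and 0.04. Over livers, the SD of log2 TE ran from 0.11 for Gls2 to 0.27 for Cps1 and Glul, the largest of the 9 genes. The median SD over all genes was 0.39, but it includes genes with few reads and is no yardstick for the well-counted Cps1. The Aco1-/- livers 2 and 3 at ZT12, whose RNA and RPF deviations were least alike, lay far from each other in log2 TE for some genes, with Ass1 at 1.53 and 0.52, Nags at 0.98 and 0.04, and Slc25a15 at 0.07 and 0.68, but close together for Asl (both 1.08), Gls2 (-0.05 and -0.15) and Slc25a13 (0.47 and 0.62). Replicate 3 of that group also had the highest TE of Otc (1.37).

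**Figure D2:**
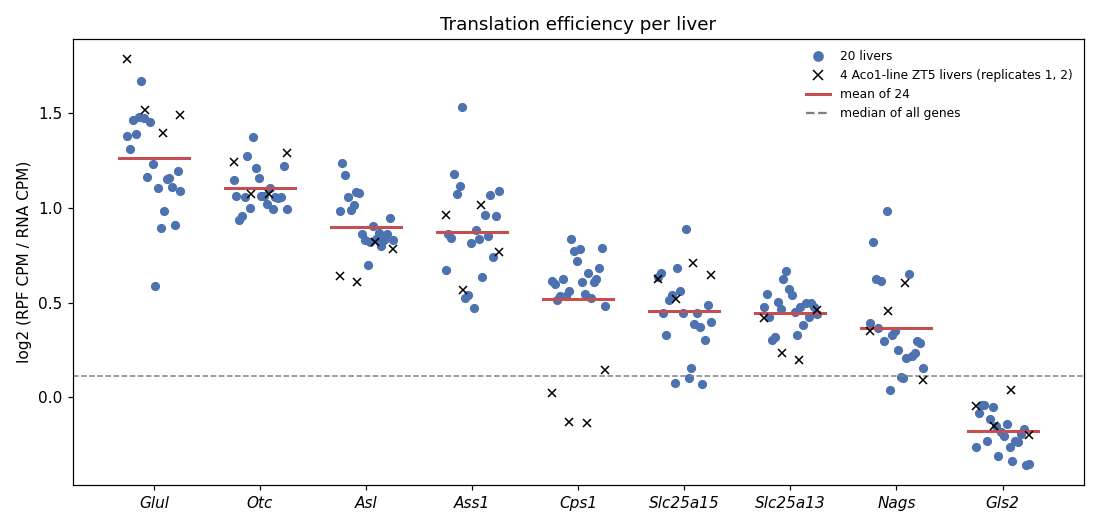
Log2 ratio of RPF to RNA CPM (y axis) for each gene (x axis, ordered by mean). Blue points are 20 livers, crosses the 4 Aco1-line ZT5 livers that stood apart, red lines means of 24 livers and the dashed line the median of all genes (0.11). Glul and Otc have the highest means, and the crosses of Cps1 (-0.14 to 0.14) lie below its other livers (0.48 to 0.84).

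From ZT5 to ZT12, averaged over the 4 genotypes (12 livers against 12), Asl and Slc25a13 rose and Slc25a15 fell in both RNA and RPF. In edgeR's quasi-likelihood test with Benjamini-Hochberg adjustment over all genes, 3 of the 9 genes passed in RNA (2 higher, 1 lower), where 22.3% of all genes tested passed. In RPF 3 of 9 passed (2 higher, 1 lower), where 31.8% of all genes passed, so the shares are near those of all genes. The median log2 change over the 9 genes was 0.05 in RNA and 0.04 in RPF, beside -0.04 for all genes in either. None of the 9 passed in TE at the same threshold, where 0.486% of all genes passed; 3 had an unadjusted p under 0.05, and DESeq2 called 1, Asl (adjusted p = 0.0385).

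Asl, the fumarate-releasing step, showed the clearest difference. Its RPF level at ZT5 was 764, 813 and 869 CPM in Aco1+/+ livers and 829, 915 and 949 CPM in Aco1-/- livers. The ZT12 values were 1316, 1403 and 1627 CPM (Aco1+/+) and 1169, 1583 and 1397 CPM (Aco1-/-). Every ZT12 liver of the Aco1 line thus exceeded every ZT5 liver of that line.

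In the Ireb2 line, Asl RPF at ZT5 was 1128, 990 and 1038 CPM in Ireb2+/+ and 1163, 1253 and 1167 CPM in Ireb2-/- livers. At ZT12 the values were 1543, 1275 and 1731 CPM in Ireb2+/+ and 1690, 1592 and 2068 CPM in Ireb2-/- livers. Here too the timepoints did not overlap within a genotype. In RNA, Asl ranged from 440 to 720 CPM at ZT5 (median 544) and from 558 to 1162 CPM at ZT12 (median 764). The averaged log2 change in RPF was 0.64 (SE 0.07, edgeR adjusted p = 1.95e-08) and in RNA 0.46 (SE 0.07, adjusted p = 3.54e-06). Within the Aco1 line alone the RPF change was 0.73 (adjusted p = 5.73e-05) and within the Ireb2 line alone 0.55 (adjusted p = 1.41e-04). With the 4 Aco1-line livers that stood apart left out, it was 0.60 (adjusted p = 9.27e-06). The log2 change in TE was 0.18 (SE 0.05, edgeR adjusted p = 0.079) and 0.09 without those 4 livers. That TE change was 0.31 within the Aco1 line alone and 0.05 within the Ireb2 line alone. The difference between the lines, -0.25, did not pass (edgeR adjusted p = 0.351).

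Slc25a13, the aspartate carrier that feeds the Ass1 step, was also higher at ZT12. Its RNA level was 226 to 301 CPM over the 12 livers at ZT5 (median 280) and 305 to 370 CPM at ZT12 (median 333), without overlap. Its RPF level was 265 to 442 CPM at ZT5 (median 374) and 414 to 505 CPM at ZT12 (median 469). The log2 change was 0.31 in RNA (SE 0.06, edgeR adjusted p = 7.05e-05) and 0.33 in RPF (SE 0.06, adjusted p = 6.29e-05), and without the 4 livers 0.27 (adjusted p = 0.00794) and 0.28 (adjusted p = 0.00113). In RPF it was 0.52 within the Aco1 line alone (adjusted p = 8.93e-04) and 0.14 within the Ireb2 line alone (adjusted p = 0.202). In RNA it was 0.40 within the Aco1 line alone (adjusted p = 0.00267) and 0.21 within the Ireb2 line alone (adjusted p = 0.116), so both calls were lost in the Ireb2 line. The RPF difference between the lines, -0.38 (SE 0.12), did not pass (edgeR adjusted p = 0.064; -0.28 and 0.356 without the 4 livers), and DESeq2 gave an adjusted p of 0.0335.

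Slc25a15, the ornithine carrier, moved the other way. Its RPF level was 186 to 377 CPM at ZT5 (median 258) and 157 to 251 CPM at ZT12 (median 205), so the timepoints overlapped. The log2 change was -0.42 in RPF (SE 0.09, edgeR adjusted p = 0.00106) and -0.26 in RNA (SE 0.07, adjusted p = 0.00898). Both calls were lost without the 4 livers that stood apart, with a change of -0.27 in RPF (adjusted p = 0.0674) and -0.13 in RNA (adjusted p = 0.348). The highest RPF values, 364 and 377 CPM, belonged to Aco1-/- livers 1 and 2 at ZT5, and the third liver of that group had 217 CPM. Within the Ireb2 line alone, which holds none of these livers, the change was -0.31 in RPF (edgeR adjusted p = 0.047) and -0.15 in RNA, which did not pass (adjusted p = 0.361).

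The other 6 genes did not pass in RNA or RPF. Gls2 was lower at ZT12 in RNA by a log2 difference of -0.16 (SE 0.07, edgeR adjusted p = 0.107) and in RPF by -0.15 (SE 0.07, adjusted p = 0.109), and the RPF value was -0.01 without the 4 livers. The RPF change had an interval of 2 SE from -0.15 to 0.05 for Otc, from -0.14 to 0.22 for Nags, from -0.17 to 0.12 for Glul and from -0.08 to 0.30 for Ass1, whose change of 0.11 became 0.25 without the 4 livers (adjusted p = 0.215). Within the Aco1 line alone Ass1 RPF passed (0.38, adjusted p = 0.0398), and within the Ireb2 line alone it had the opposite sign (-0.16, adjusted p = 0.499). A miss of the threshold does not show that these levels were equal at the timepoints.

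**Figure D3:**
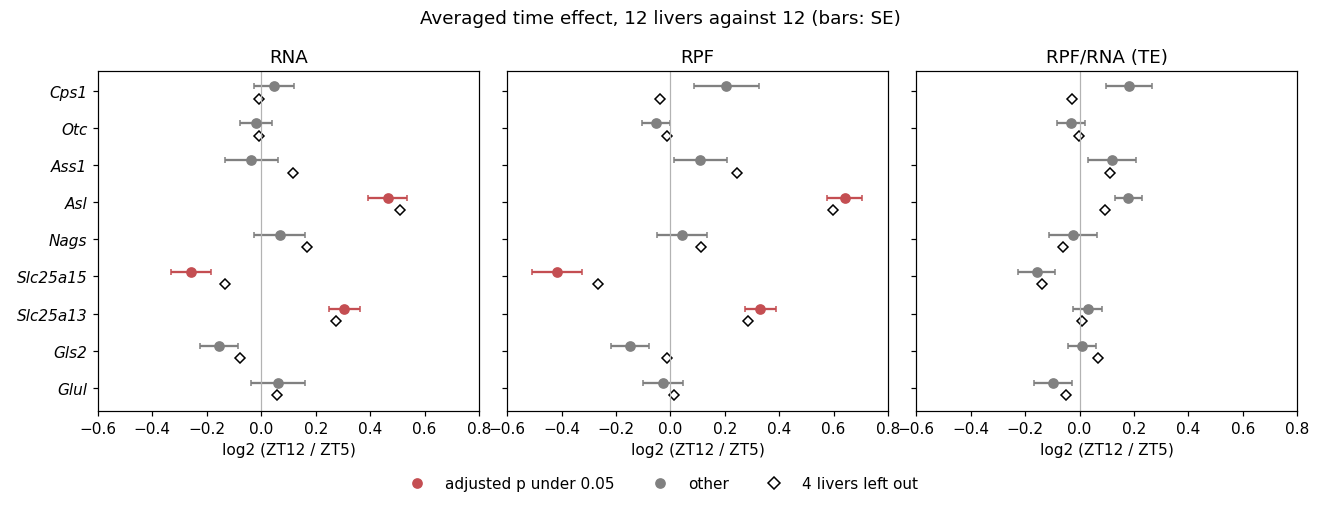
Log2 ratio of ZT12 to ZT5 (x axes) of each gene (y axis) in RNA, RPF and TE, averaged over the 4 genotypes, with SE. Red points passed an adjusted p of 0.05 in edgeR, grey points did not, and diamonds are the values with 4 Aco1-line ZT5 livers left out. Asl stays near 0.6 in RPF with and without those livers, and the Cps1 values in RPF and TE fall to about 0 without them.

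Within single genotypes (3 livers against 3), Asl RPF passed in all 4. The log2 change was 0.83 in Aco1+/+ (SE 0.14, edgeR adjusted p = 0.00142), 0.62 in Aco1-/- (adjusted p = 0.0078), 0.53 in Ireb2+/+ (adjusted p = 0.00965) and 0.58 in Ireb2-/- livers (adjusted p = 0.00671). An exact two-sided permutation test gave p = 0.1 in each genotype, the smallest value that 3 against 3 allows. The RPF call in Ireb2+/+ livers was lost without replicate 3 at ZT12 (adjusted p = 0.0615) or replicate 2 at ZT5 (adjusted p = 0.0536), and the call in Aco1-/- livers without replicates 2 and 3 at ZT12 together (0.39, adjusted p = 0.213), a fit that has 1 Aco1-/- liver at ZT12 and takes its spread from the other groups. For RNA, the log2 change of Asl was 0.42 in Aco1+/+ (edgeR adjusted p = 0.0717), 0.43 in Aco1-/- (adjusted p = 0.0816), 0.47 in Ireb2+/+ (adjusted p = 0.0689) and 0.53 in Ireb2-/- livers (adjusted p = 0.0327). The last passed, but was lost without any one of 6 mice (adjusted p of up to 0.174, without replicate 3 at ZT12).

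In Aco1+/+ livers, 2 of the 9 genes passed in RPF (Asl and Slc25a13), where 6.64% of all genes passed, and 1 in RNA (Slc25a13, log2 change 0.54), where 7.05% passed. In Aco1-/- livers, 3 passed in RPF (Asl, Slc25a13 and Slc25a15, the last lower by a log2 difference of -0.74), where 12.1% of all genes passed, and 1 in RNA (Slc25a15), where 5.15% passed. In Ireb2+/+ livers, 2 passed in RPF (Asl and Slc25a15), where 7.53% of all genes passed, and 0 in RNA, where 2.29% passed. In Ireb2-/- livers, Asl passed in both, where 5.73% of all genes passed in RPF and 2.77% in RNA. For Ireb2+/+ RNA, 2 genes had an unadjusted p under 0.05 and DESeq2 called 1. With the 4 ZT5 livers left out, leaving 1 ZT5 liver in each Aco1-line genotype and assuming that it varies like the rest, 0 of the Aco1-line calls passed in RNA or RPF. The RPF log2 changes were then 0.73 for Asl (adjusted p = 0.077) and 0.43 for Slc25a13 (adjusted p = 0.192) in Aco1+/+ livers, and 0.55 (adjusted p = 0.174) and 0.42 (adjusted p = 0.178) in Aco1-/- livers, where Slc25a15 stood at -0.17. Without Aco1-/- livers 2 and 3 at ZT12, Slc25a13 RPF (0.44, adjusted p = 0.182) and Slc25a15 RNA (-0.84, adjusted p = 0.106) did not pass in Aco1-/- livers either. Without the 4 livers, in RNA, Slc25a13 stood at 0.47 in Aco1+/+ (adjusted p = 0.4) and Slc25a15 at -0.08 in Aco1-/- livers. Every call of Slc25a13 and Slc25a15 within a genotype was also lost without single mice. The largest adjusted p came without replicate 2 at ZT5 for Slc25a13 in Aco1+/+ (0.0704 in RNA, 0.0926 in RPF) and replicate 1 at ZT5 in Aco1-/- livers (0.172). For Slc25a15 it came without replicate 2 (RNA, 0.246) or replicate 1 (RPF, 0.0964) at ZT5 in Aco1-/-, and replicate 1 at ZT12 in Ireb2+/+ livers (0.187).

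TE by timepoint within a genotype gave 0 calls among the 9 genes in edgeR and in DESeq2. Of all genes, 0.0187% passed in Aco1+/+, 0.15% in Aco1-/-, 0.533% in Ireb2+/+ and 0.00935% in Ireb2-/- livers, and between 0 and 2 of the 9 genes had an unadjusted p under 0.05.

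Cps1 differed from liver to liver in RPF more than in RNA (coefficients of variation of 24.6% and 13.9%). In Aco1+/+ livers at ZT5 its RPF level was 5796, 7242 and 11300 CPM, with log2 TE of 0.02, -0.13 and 0.61. In Aco1-/- livers at ZT5 it was 5815, 6772 and 11180 CPM, with log2 TE of -0.14, 0.14 and 0.62. In each group replicates 1 and 2 were low and replicate 3 resembled the remaining livers.

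At ZT12 all Aco1-line livers had 9434 to 13900 RPF CPM of Cps1, and all Ireb2-line livers had 9287 to 15100 CPM at either timepoint. RNA of Cps1 in the 4 low livers was 5700, 7945, 6396 and 6130 CPM, within or just below the range of the others (6223 to 9735 CPM). Within the Aco1 line alone the Cps1 RPF change from ZT5 to ZT12 was a log2 value of 0.53 (adjusted p = 0.0481 by edgeR), and within the Ireb2 line alone -0.12 (adjusted p = 0.546). The averaged RPF change was 0.20 (SE 0.12, adjusted p = 0.205) and -0.04 without the 4 livers.

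The time effect was compared between lines in the same model. None of the 9 genes passed in RNA, RPF or TE, where 0.00935%, 3.19% and 0.0841% of all genes passed. In that order 3, 4 and 2 of the 9 had an unadjusted p under 0.05, and DESeq2 called 1 in RPF (Slc25a13). For Cps1 the RPF change was lower in the Ireb2 line by a log2 difference of -0.65 (SE 0.24, edgeR adjusted p = 0.136), and by -0.16 without the 4 livers. For Ass1 the RPF difference was -0.53 (SE 0.19, adjusted p = 0.133), and -0.79 without the 4 livers (adjusted p = 0.261).

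Loss of IRP1 or of IRP2 gave no call among the 9 genes in edgeR with the 12 mice of a line fitted together, and 1 in DESeq2, described below; other choices of mice gave up to 1 call in edgeR in the Ireb2 line. At single timepoints, 0 of 9 genes passed in edgeR in each of the 12 comparisons of knockout with control, and DESeq2 called 0 as well. All genes passed at rates of 0.0%, 0.00935% and 0.00935% in Aco1-/- at ZT5 (RNA, RPF, TE), 0.00935%, 0.299% and 0.0935% in Aco1-/- at ZT12, 0.00935%, 0.0654% and 0.00935% in Ireb2-/- at ZT5, and 0.0187%, 0.028% and 0.0% in Ireb2-/- at ZT12. Between 0 and 3 of the 9 genes had an unadjusted p under 0.05, and the smallest adjusted p was 0.23.

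Averaged over the timepoints (6 livers against 6), 0 of 9 passed again, where 0.00935% of all genes passed in RNA, 0.0561% in RPF and 0.0187% in TE for Aco1, and 0.028%, 0.234% and 0.00935% for Ireb2. In the Ireb2 line 3, 4 and 1 of the 9 genes had an unadjusted p under 0.05 in RNA, RPF and TE, and in the Aco1 line 1, 1 and 0. DESeq2 called 1 gene, Ass1 in Ireb2-/- RPF. The median log2 difference in RPF over the 9 genes was 0.125 in the Aco1 line, beside 0.01 for all genes, and 0.08 in the Ireb2 line, beside 0.03 for all genes. The change of the genotype effect between timepoints passed for 0 of 9 genes too, where 0.0%, 0.0% and 0.028% of all genes passed for Aco1 and 0.0% in each measure for Ireb2; at most 2 of the 9 had an unadjusted p under 0.05, and DESeq2 called 0.

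Ass1, often described as limiting for the cycle, had the largest genotype difference in RPF. Its RPF level in Ireb2+/+ livers was 778, 639 and 801 CPM at ZT5 and 792, 666 and 493 CPM at ZT12. In Ireb2-/- livers it was 1038, 1103 and 1052 CPM at ZT5 and 737, 916 and 1279 CPM at ZT12. The genotypes did not overlap at ZT5 and overlapped at ZT12.

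In Aco1+/+ livers Ass1 RPF was 576, 628 and 493 CPM at ZT5 and 539, 724 and 795 CPM at ZT12. Aco1-/- livers had 808, 774 and 568 CPM at ZT5 and 1058, 1129 and 796 CPM at ZT12, so the ranges overlapped at ZT5 and nearly touched at ZT12. Same-numbered mice of these groups deviated together at ZT5, and Ass1 RPF was higher in the Aco1-/- liver of each of the 3 numbers there, with a log2 difference of 0.34 with the replicate number as a block (edgeR, unadjusted p = 0.0534, adjusted p = 1). The averaged log2 difference was 0.56 for Ireb2 (SE 0.14, edgeR adjusted p = 0.16, DESeq2 adjusted p = 0.0206) and 0.44 for Aco1 (SE 0.13, edgeR adjusted p = 0.304). In RNA these were 0.29 (SE 0.11, adjusted p = 0.771) and 0.28 (SE 0.13, adjusted p = 0.938), and in TE 0.25 for Ireb2 (SE 0.07, adjusted p = 0.979).

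Gls2, which feeds ammonia into the cycle, was higher in Ireb2-/- livers by a log2 difference of 0.34 in RPF (SE 0.09, edgeR adjusted p = 0.13) and 0.35 in RNA (SE 0.10, adjusted p = 0.436). Its RPF level was 431, 378 and 387 CPM in Ireb2+/+ and 453, 504 and 454 CPM in Ireb2-/- livers at ZT5, without overlap. At ZT12 it was 361, 341 and 308 CPM in Ireb2+/+ and 399, 409 and 554 CPM in Ireb2-/- livers, again without overlap.

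Glul, the glutamine-forming enzyme, was lower in Ireb2-/- livers by a log2 difference of -0.32 in RPF (SE 0.09, edgeR adjusted p = 0.198) and -0.39 in RNA (SE 0.16, adjusted p = 0.824). Its RPF level was 648, 602 and 631 CPM in Ireb2+/+ and 536, 492 and 467 CPM in Ireb2-/- livers at ZT5. At ZT12 it was 527, 480 and 590 CPM in Ireb2+/+ and 510, 330 and 453 CPM in Ireb2-/- livers, and here the genotypes overlapped. The RNA difference drew on Ireb2+/+ replicate 3 at ZT5, with 421 RNA CPM against 237 and 256 CPM in its group, and without that liver it was -0.24. That RNA library scored -34.3 on the second principal component of RNA levels, where the other 23 livers lay between -8.1 and 13.5.

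Among the other genes, Asl RPF was higher in Ireb2-/- livers by 0.21 on the log2 scale (adjusted p = 0.38 in edgeR). For Cps1 the interval of 2 SE around the RPF difference ran from -0.31 to 0.41 in the Aco1 line and from -0.33 to 0.14 in the Ireb2 line. For Otc it ran from -0.13 to 0.21 and from -0.19 to 0.10.

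**Figure D4:**
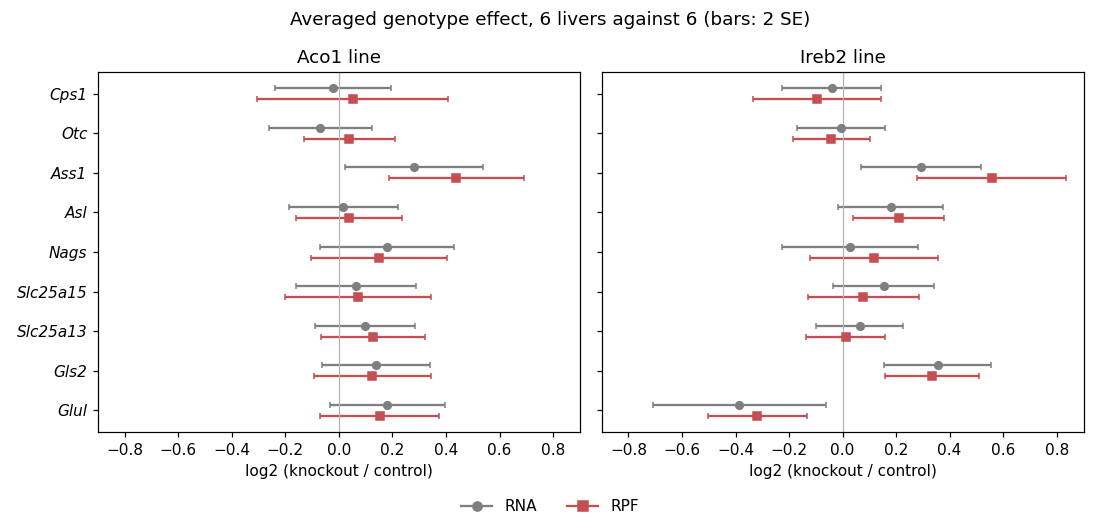
Log2 ratio of knockout to control (x axes) of each gene (y axis), averaged over ZT5 and ZT12, in the Aco1 line and in the Ireb2 line, with bars of 2 SE. Grey circles are RNA and red squares RPF. None passed an adjusted p of 0.05 in edgeR, and Ass1 RPF lies at 0.44 and 0.56.

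Genes that supply nitrogen to the cycle were read for context from a list of 17 genes, of which 16 could be tested. The counts of this and the following lists stand beside the 22.3% (RNA) and 31.8% (RPF) of all genes that passed, and those without the 4 livers beside 11% and 19.4%. Within the Ireb2 line alone 17.2% of all genes passed in RPF, and within the Aco1 line alone 22.2%. In the averaged time effect 5 rose and 1 fell in RNA, and 6 rose and 3 fell in RPF. Without the 4 livers, 3 rose and 1 fell in RNA, and 5 rose and 1 fell in RPF. The RPF median of the averaged effect was 0.18 on the log2 scale, beside -0.04 for all genes. In RPF 5 rose and 1 fell within the Aco1 line alone (median 0.257), and 3 rose and 3 fell within the Ireb2 line alone (median 0.065). Gpt2, the mitochondrial alanine aminotransferase, rose by 0.64 in RPF (edgeR adjusted p = 2.0e-08), and Fh1, which hydrates the fumarate that Asl releases, rose by 0.34 (adjusted p = 2.34e-05). The Gpt2 rise was 0.90 within the Aco1 line alone and 0.37 within the Ireb2 line alone. The lines differed by -0.53 (edgeR adjusted p = 0.0238), and by -0.46 without the 4 livers. Slc25a12, the other aspartate carrier, and Got2, the mitochondrial aspartate aminotransferase, rose by 0.35 and 0.23. The Got2 rise lay in the Aco1 line (0.54, adjusted p = 5.03e-04), with -0.07 within the Ireb2 line alone (adjusted p = 0.553), and the lines differed by -0.61 (adjusted p = 0.00498). Among the genes that fell were Slc25a22, a mitochondrial glutamate carrier (-0.49, adjusted p = 3.59e-05), and Oat, the ornithine aminotransferase (-0.34, adjusted p = 0.00472; 0.0707 without the 4 livers, and a change of -0.04 within the Aco1 line alone). Of this list, 0 genes passed in the averaged effect of either knockout in RNA, RPF or TE.

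Of 12 testable transporters of amino acids and urea, 3 rose and 1 fell in RNA, and 3 rose and 2 fell in RPF. Slc38a3, a glutamine carrier of hepatocytes, rose by 0.45 in RPF (edgeR adjusted p = 6.29e-05), Slc1a2, a glutamate carrier, by 0.49 (adjusted p = 6.0e-05) and Slc38a2 by 0.64 (adjusted p = 0.00201). Slc1a4, a neutral amino acid carrier, fell by 0.92 (adjusted p = 4.34e-06) and Slc7a8 by 0.59 (adjusted p = 0.00857; 0.108 without the 4 livers, 0.231 within the Aco1 line alone). In RPF 4 rose and 1 fell within the Aco1 line alone (median 0.15), and 1 rose and 2 fell within the Ireb2 line alone (median -0.016). Within the Ireb2 line alone Slc38a3 stood at 0.11 (adjusted p = 0.462) and Slc1a2 at 0.23 (adjusted p = 0.162). Without the 4 livers, 3 rose and 0 fell in RNA, and 3 rose and 1 fell in RPF.

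Of 30 enzymes of amino acid breakdown, 1 rose and 12 fell in RNA, and 3 rose and 9 fell in RPF (0 and 8, and 4 and 8, without the 4 livers). In RPF 7 rose and 10 fell within the Aco1 line alone, and 0 and 11 within the Ireb2 line alone. Hal and Amdhd1 of histidine breakdown fell by 1.05 and 0.89 in RPF (edgeR adjusted p = 2.24e-11 and 4.33e-10). Amt of the glycine cleavage system fell by 0.99 (adjusted p = 1.13e-11) and Cbs, which opens transsulfuration, by 0.83 (adjusted p = 1.12e-09). Tat, the tyrosine aminotransferase, rose by 0.80 (adjusted p = 0.0016), Sds, the serine dehydratase, by 0.41 (adjusted p = 0.0168) and Bckdhb, a subunit of the branched-chain ketoacid dehydrogenase, by 0.21 (adjusted p = 0.00473). None of these 3 passed within the Ireb2 line alone (0.57, 0.29 and 0.09 in that order, adjusted p = 0.255, 0.202 and 0.461), and Sds did not pass without Aco1-/- livers 2 and 3 at ZT12 (0.30, adjusted p = 0.102). Uroc1, the urocanate hydratase of histidine breakdown, rose in TE by 0.26 (adjusted p = 0.0114; 0.796 without the 4 livers). The median RPF change of the 30 genes was -0.04, beside 0.04 for the 9 cycle and ammonia genes, and the difference between the lists was not tested.

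Of 12 regulators of the hepatic amino acid and fasting programme, 4 rose in RNA and 5 in RPF, and none fell (3 and 4 without the 4 livers). In RPF 6 rose and 0 fell within the Aco1 line alone (median 0.267), and 3 rose and 1 fell within the Ireb2 line alone (median -0.008). In RNA these counts were 4 and 1 in the Aco1 line, and 3 and 0 in the Ireb2 line. Averaged over the genotypes, Foxo1 rose by 0.93 in RPF (edgeR adjusted p = 7.2e-10), Cebpb by 0.96 (adjusted p = 2.59e-07), Hnf4a by 0.45 (adjusted p = 3.28e-05) and Klf15 by 0.29 (adjusted p = 0.00349). Ppara rose by 0.34 (adjusted p = 0.00564), and its value was 0.19 without the 4 livers (adjusted p = 0.201). Within the Ireb2 line alone Klf15 stood at 0.11 (adjusted p = 0.52) and Ppara at 0.12 (adjusted p = 0.563). As a check of the timepoint labels, 12 of 12 clock genes passed in RPF, among them Per1 (log2 change 2.60) and Arntl (-1.90). Without the 4 livers 9 of the 11 that could be tested passed, Dbp (0.40, adjusted p = 0.368) and Nr1d2 (0.23, adjusted p = 0.323) did not, and within the Ireb2 line alone 8 of 12 passed, with Arntl at -1.20 (adjusted p = 0.0796).

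Zonation was read from 14 periportal and 15 pericentral genes, which include members of both arms. Among the periportal genes 3 rose and 5 fell in RPF (3 and 3 without the 4 livers, 5 and 3 within the Aco1 line alone, 3 and 3 within the Ireb2 line alone), and 1 of those that rose was Asl. Pck1 rose by 0.97 (edgeR adjusted p = 2.7e-04), and Hal and Cdh1 fell by 1.05 and 0.54. Within the Ireb2 line alone Cdh1 stood at -0.38 (adjusted p = 0.13). Among the pericentral genes 3 rose and 4 fell in RPF (2 and 2 without the 4 livers, 4 and 1 within the Aco1 line alone, 1 and 5 within the Ireb2 line alone), and the difference between the lines in these counts was not tested. Cyp2e1 rose by 0.53 (adjusted p = 2.67e-05), and Axin2 and Lgr5 fell by 0.78 and 0.81. Within the Aco1 line alone Lgr5 stood at -0.76 (adjusted p = 0.15). Glul, a pericentral gene, had a log2 change of -0.03 (SE 0.07). In Ireb2-/- against Ireb2+/+ livers, averaged over the timepoints, the median log2 difference in RPF was 0.17 for the 10 periportal genes outside the cycle list and -0.14 for the 14 such pericentral genes, beside 0.03 for all genes, a description with no call behind it in edgeR.

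Promoter windows from 250 bases before to 50 after an annotated start were at hand for 6 of the 9 genes (RefSeq, GRCm38.p6) and none was read for Cps1, Asl and Gls2. The E-box CACGTG, the element bound by the clock factors, is shown because Slc25a13 and Slc25a15, which carry it, passed in opposite directions in the averaged time effect. The Slc25a15 change in RPF was -0.27 without the 4 livers. Ass1 carries it too and did not pass, and the difference between these genes was not tested. It was found in 3 of the 6 genes. Of all 32851 windows 7.15% held it, but a gene can have several windows, so this share of windows is not a rate per gene. The same holds for the shares below. The capitals mark the motif, each run is read 5′ to 3′ on the gene's own strand, and the position is that of the first motif base relative to the start of the window's transcript:
Ass1, -36, chr2:31470226-31470247, plus strand: cccgtcccCACGTGtcccaggt
Slc25a13, -125, chr6:6217285-6217306, minus strand: gtctgagtCACGTGtcctggcc
Slc25a15, -77, chr8:22398341-22398362, minus strand: ctgccgcaCACGTGccgcggct

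For Slc25a13 and Slc25a15 another transcript of the gene starts further upstream, so these windows also lie at or inside the annotated gene. The gene with the second window rose at ZT12, that with the third fell, and Ass1 had a log2 RPF change of 0.11 (SE 0.10). The D-box core TTATGNAA was found in the Otc window alone among the 6, and in 3.38% of all windows. The CRE half-site TGACG was in the windows of Slc25a13 and Nags (20.81% of all windows) and CCAAT in those of Glul and Slc25a13 (37.41%). The CRE TGACGTCA, the C/EBP elements TTGCGCAA and ATTGCGNAA, the HNF4 half-site CAAAGTCCA, the HNF1 half-site GTTAAT, the glucocorticoid half-site TGTTCT and the TATA box TATAAA were in 0 of the 6. Both strands were searched, a match is a description, and no match says only that these letters were not in the window.

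The 9 genes did not share a single profile over the 24 livers. Within the list, the highest Pearson correlations of log2 RPF levels were between Asl and Slc25a13 (0.80) and Ass1 and Gls2 (0.73), and the lowest was between Asl and Slc25a15 (-0.55). Of all 6320 genes with a mean of at least 10 RPF CPM, Asl was most like Gpt2 (0.93), Por (0.92) and Lrp4 (0.90), and Slc25a13 most like Sec23a (0.91), Slc1a2 (0.90) and Cyp2a5 (0.90). Cps1 was most like Eprs (0.92), Sf3b1 (0.90) and Mthfd1 (0.89), and Gls2 most like Gnmt (0.93), Cth (0.83) and Echdc3 (0.79).

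For Ass1 the nearest were Selenbp1 (0.83), Idi1 (0.80) and Shoc2 (0.74). Slc25a15 was nearest to Tubb2a (0.85), Apoc3 (0.80) and Ppa1 (0.80), Glul to Nxpe2 (0.78), Rgn (0.73) and Pcnx3 (0.72), Nags to Rpusd3 (0.78), Epn1 (0.77) and Yif1a (0.76), and Otc to Hgd (0.72), Abhd18 (0.71) and Psmd14 (0.68). The livers share groups and libraries, including those that stood apart, so these values describe likeness and carry no p.

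Footprints outside the CDS differed widely among the genes. The column read as 5′ untranslated region (5′ UTR) held 19.1% of all Ass1 RPF reads over the 24 livers, the 94.7th percentile of 7563 genes, for which the median was 1.86%. In single livers the Ass1 share ran from 7.65 to 32.7% (median 18.5%), whereas its RNA share there was 24.5 to 35.9%. Slc25a15 had 9.49% of its RPF reads in that column and 1.43% of its RNA reads. Glul had 8.19% of RPF and 4.63% of RNA reads there.

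Asl had 14.4% of its RNA reads but 1.78% of its RPF reads in the 5′ UTR column. At the other end, Cps1 had 0.266%, Slc25a13 0.177%, Gls2 0.143% and Nags 0.052% of RPF reads there, the last from 7 reads in all. Downstream of the CDS, the column read as 3′ UTR held 70.9% of Glul and 56.8% of Slc25a15 RNA reads, but 0.457% and 0.512% of their RPF reads. The meaning of the columns was read from the values, so these shares hold only if that reading is right, and they depend on which transcript the counting used.

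**Figure D5:**
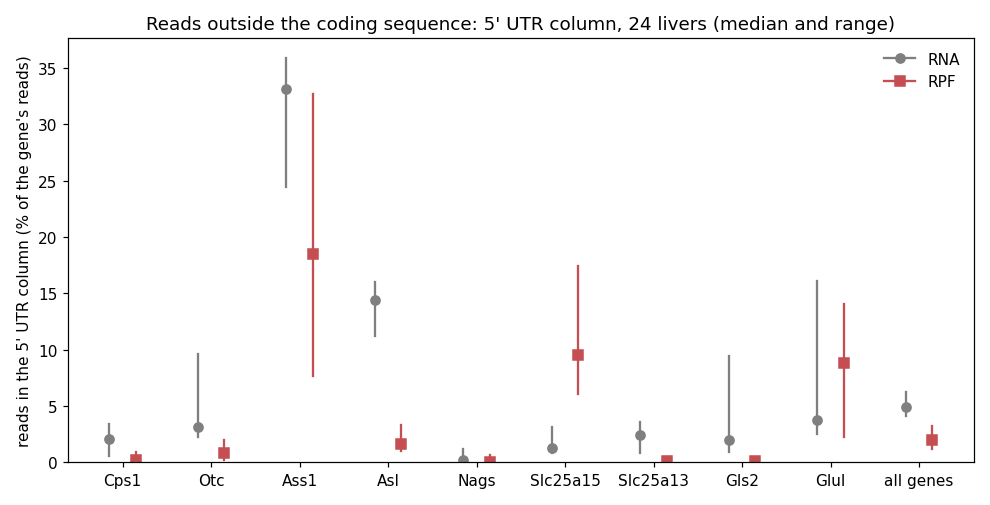
Share of each gene's reads in the column read as 5′ UTR (y axis, percent) for the 9 genes and for all genes together (x axis). Points are medians and bars the range over 24 livers, grey for RNA and red for RPF. Ass1 has the highest RPF share (median 18.5%), and Slc25a15 has a higher share in RPF than in RNA.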

How the data were processed

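Libraries of 24 livers were analysed, 1 total RNA and 1 RPF library per mouse. The deposited values were raw counts of reads per gene in 5 unnamed columns, which the authors made from reads trimmed with cutadapt 3.5, cleared of ribosomal and transfer RNA with Bowtie2 and mapped with STAR 2.70f. The counter, its strand setting and its handling of reads shared by paralogues are not given in the sources used here. The third column of a file, after the gene identifier and a column read as 5′ UTR, was read as CDS from the values, since RPF reads concentrated there. For 29 libraries the 2 sequencing runs were summed; they differed by a chi-square of 0.981 to 1.102 per degree of freedom, against at least 2.30 between mice of a group.

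Groups came from the sample labels. Counts were scaled by upper quartile over the 48 libraries and tested with edgeR 4.0.16 (R 4.3.3) by the robust quasi-likelihood test, after a filter at a minimum count of 10 and a minimum total of 15, with Benjamini-Hochberg adjustment over 10696 genes and a threshold of 0.05. TE was the RPF-by-group term in a model with a term for each mouse. Log2 values per liver used a prior count of 0.5. Comparisons within a line used its 12 mice, and comparisons over both lines all 24. SE was derived from the F statistic. The time effect averaged over the genotypes was also checked on simulated data. That check does not show how the tests perform for genotype effects, differences between effects or comparisons within single genotypes. Nor does it show how they perform for changes as small as those reported here or with libraries that stood apart. TMM scaling, DESeq2 1.42.0, limma 3.58.1, other filters, the first run alone, all columns summed, other choices of libraries and a replicate block were tried. Same-numbered mice deviated together, every correlation over 0.1, in 2 of 16 pairs of groups, both being Aco1+/+ with Aco1-/- at ZT5 (RNA and RPF).

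The genes, lists, motifs and tests were chosen with earlier results of these data known. Of the list of 10 genes 1, and 1 further gene of the lists read for context, are not reported here, and the counts leave them out. Named were the other 9 genes, and from each list up to 4 genes per direction that passed in the averaged time or genotype effect, smallest adjusted p first, with Ppara, Lgr5 and the clock genes named outside this rule, the last as a check of labels; likeness named the 3 genes with the highest correlation. The 4 Aco1-line livers and the 2 Aco1-/- livers left out as alternatives were chosen after their values were seen. Lengths of coding sequences and protein sequences were not used here. The number of reads limits the precision of each value. The p-values weigh a difference against the spread between mice of a group, which also holds differences between their libraries.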

Additional observations from a re-analysis of the deposited data

Results flagged for a closer look

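None of the 9 genes had a time effect that differed between lines or a genotype effect that differed between timepoints in edgeR at an adjusted p of 0.05. Among the genes read for context, the RPF time effect differed between the lines (Ireb2 line minus Aco1 line, log2) by -0.87 for Aldh4a1, -0.61 for Got2, -0.73 for Gulo, -1.83 for Per3, -0.67 for Slc38a3, -0.53 for Gpt2, 0.61 for Hsd17b13 and -0.44 for Gpt, and the TE time effect by -0.81 for Aldh4a1. With 4 Aco1-line ZT5 livers left out, the differences in RPF passed for Aldh4a1 (-0.93, adjusted p = 0.0105) and Got2 (-0.63, adjusted p = 0.0491) and did not pass for the other 6 or for Aldh4a1 TE (-1.07, adjusted p = 0.18).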

How the results depend on the processing

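With TMM scaling the number of the 9 genes called from ZT5 to ZT12 became 2 in Aco1+/+ RNA (7.26% of all genes passed), 1 in Ireb2+/+ RNA (2.39%) and 1 in Ireb2+/+ RPF (7.26%); the percentages below are likewise of all genes. DESeq2 gave 2, 1 and 1 for these (6.8, 2.97 and 5.45%), and 1 each in Ireb2-/- against Ireb2+/+ RPF (0.477%), in the averaged TE time effect (0.823%) and in the RPF difference between lines (4.25%). With only the groups compared, the counts were 2 in Aco1+/+ RNA (9.87%), 1 in Aco1+/+ TE (0.739%), 0 in Aco1-/- RNA (3.66%), 1 in Aco1-/- RPF (7.82%) and 1 in Ireb2-/- against Ireb2+/+ RPF at ZT5 (0.496%). The first run alone gave 0 (3.29%), and all columns summed 2 (6.34%), in Aco1-/- RNA, and all columns gave 1 in Ireb2+/+ RNA (4.35%). A fit of all 8 groups gave 1 in Ireb2+/+ RPF (6.05%). Without the 4 Aco1-line ZT5 livers, all Aco1-line time counts within a genotype were 0 (1.46 and 1.17% in RNA, 1.73 and 2.1% in RPF). Without Aco1-/- livers 2 and 3 at ZT12, they were 0 in Aco1-/- RNA (0.85%), 1 in Aco1-/- RPF (7.13%) and 1 in Aco1+/+ TE (0.425%). Within the Aco1 line alone, the time effect called 5 genes in RPF (22.2%). Within the Ireb2 line alone, 1 gene was called in RNA (8.28%), and Got2 (-0.01 in RNA, -0.072 in RPF) and Gulo (-0.12 in RPF) changed sign. The replicate block left 1 call in Ireb2+/+ RPF (6.59%), where Slc25a15 had an adjusted p of 0.0556 in edgeR, and changed no other count by over 1.5 times; the replicate numbers pair the mice in no comparison but Aco1 at ZT5, where the count was 0 with and without the block.

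Leaving out each mouse in turn, the averaged time effect called 3 to 4 of the 9 genes in RNA and 3 to 5 in RPF, and the count ranged from 0 to 1 in Aco1+/+ RNA and TE, from 1 to 2 in Aco1+/+ RPF, from 0 to 1 in Aco1-/- RNA, from 1 to 4 in Aco1-/- RPF, from 0 to 1 in Ireb2+/+ RNA and TE, from 0 to 2 in Ireb2+/+ RPF and from 0 to 1 in Ireb2-/- RNA. It also ranged from 0 to 1 in Ireb2-/- against Ireb2+/+ (TE at ZT5, RPF averaged), from 0 to 1 in the averaged TE time effect, and from 0 to 2 in RPF and 0 to 1 in TE for the difference between lines. The averaged changes of Asl (RPF 0.61 to 0.67), Slc25a13 (0.31 to 0.35) and Slc25a15 (-0.47 to -0.38) passed without any single mouse. Causes were not tested. With 3 mice per group, small differences are not detectable, and Nags, counted least, is the least precise.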
